A study of Rattus norvegicus with 4 samples.

Results

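The genes described here are the signalling kinases and cell cycle regulators on a rat cDNA array, measured in liver after a toxicant that injures the bile ducts. A rule on gene symbols set the members: a spotted DNA feature entered when it carried a single symbol that began with Map2k, Map3k, Mapk, Akt, Prk, Pik3, Rps6k, Sgk, Grk, Jak, Cdk, Ccna, Ccnb, Ccnd or Ccne. This gave 49 of the 958 genes with a single symbol, on 75 of 1936 features. Of the 49, 37 genes on 51 features belonged to the kinase families, and 12 genes on 24 features were cyclins or carried the Cdk prefix. A prefix is not a function: Mapk8ip2 encodes a scaffold of the JNK pathway, Aktip an Akt-binding protein, and Cdkn3 a phosphatase that acts on Cdks.

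Protein kinases of these families carry signals from the cell surface to the nucleus. In the MAP kinase cascades a Map3k phosphorylates a Map2k, which phosphorylates ERK, JNK or p38, while PI3K lipid kinases act through Akt, Sgk and S6 kinases in the response to insulin and growth factors. Cyclins bind and activate cyclin-dependent kinases; hepatocytes of the adult liver are mostly quiescent, and D-type cyclins mark their entry into the cycle, with E-, A- and B-type cyclins acting in the later phases. Most of these proteins are switched by phosphorylation, which an RNA measurement does not read.

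Male Sprague-Dawley rats, of an age not given in the sources used here, received α-naphthylisothiocyanate (ANIT) in olive oil at 75 mg/kg into the peritoneum, or olive oil alone, and the right lateral liver lobe was taken at 24 h. RNA from 3 rats was pooled for either treatment, so each condition is 1 pool and the spread between animals is not known. The ANIT and olive oil pools were hybridised together on 4 arrays, taken as technical repeats: ANIT carried the dye Cy5 on arrays 1 and 3, and Cy3 on arrays 2 and 4. In whole liver, fewer cells of a type and less RNA per cell cannot be told apart.

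Values are log ratios, read as log2 and as ANIT over olive oil. The base of the logarithm is not stated, and natural logarithms are possible. The direction is likely only, from the order of the channels in the labels; if it ran the other way, every "higher" below would be "lower". The array medians over all features were -0.68, 0.31, -0.64 and 0.35, so the ratios as deposited lay low where ANIT was in Cy5 and high where it was in Cy3. Subtracting these medians (centring) raises every gene's mean by 0.17. The rule for a call was a 4-array mean of 1 or more in size (2-fold) with 1 sign on every array. The SD given is over the 4 hybridisations (n = 4), and it includes what differs between the orientations of the dyes. There is no p-value for the effect of ANIT.

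None of the 49 genes reached 2-fold, and none reached 1.5-fold with 1 sign on all arrays. Over all genes 4.18% passed the 2-fold rule and 10.4% the 1.5-fold rule. Read as natural logarithms, the values of Sgk1 (1.75-fold lower), Grk4 (1.54-fold lower) and Map2k2 (higher, barely past the limit) passed 1.5-fold, beside 12.2% of all genes lower and 4.28% higher. The gene means ran from -0.56 for Sgk1 to 0.41 for Map2k2, with a median of -0.16 beside -0.24 over all genes, and 39 of the 49 (79.6%) lay below 0, beside 78.8% of all genes. Only 8 of the 49 (16.3%, beside 29.3% of all genes) had the same sign on all 4 arrays. The 4 that were above 0 throughout were Map2k2, Prkar1a, Mapk14 and Mapk9 (9.08% of all genes kept that sign), and the 4 below 0 throughout were Sgk1, Grk4, Map3k1 and Prkab1 (20.3% of all genes). All 8 belonged to the kinase families, and 0 of the 12 cyclin and Cdk genes kept 1 sign as deposited. Another 35 of the 49 genes were below 0 on both arrays with ANIT in Cy5 and above 0 on both with ANIT in Cy3, as were 55.6% of all genes, and no member did the opposite.

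Signs depended on the centring. The median of the 49 genes became 0.0083 and that of all genes -0.072. With each array centred on its own median, 13 of the 49 genes kept 1 sign (26.5%, beside 26.4% of all genes), 5 higher (beside 11.4%) and 8 lower (beside 15.0%). By class these were 5 of the 12 cyclin and Cdk genes (41.7%) and 8 of the 37 kinase genes (21.6%), so the class with the higher share differs between the readings. In both readings 4 of the 49 genes kept the same sign: Map2k2 and Prkar1a higher, Sgk1 and Grk4 lower. Of all 958 genes, 50 were higher and 78 lower in both. Map3k1, Mapk14, Mapk9 and Prkab1 had mixed signs after centring. Ccnd1, Cdkl3 and Prkar2a (higher) and Cdk1, Cdk6, Cdkn3, Pik3c3, Prkaa2 and Sgk3 (lower) kept 1 sign only after it.

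**Figure D1:**
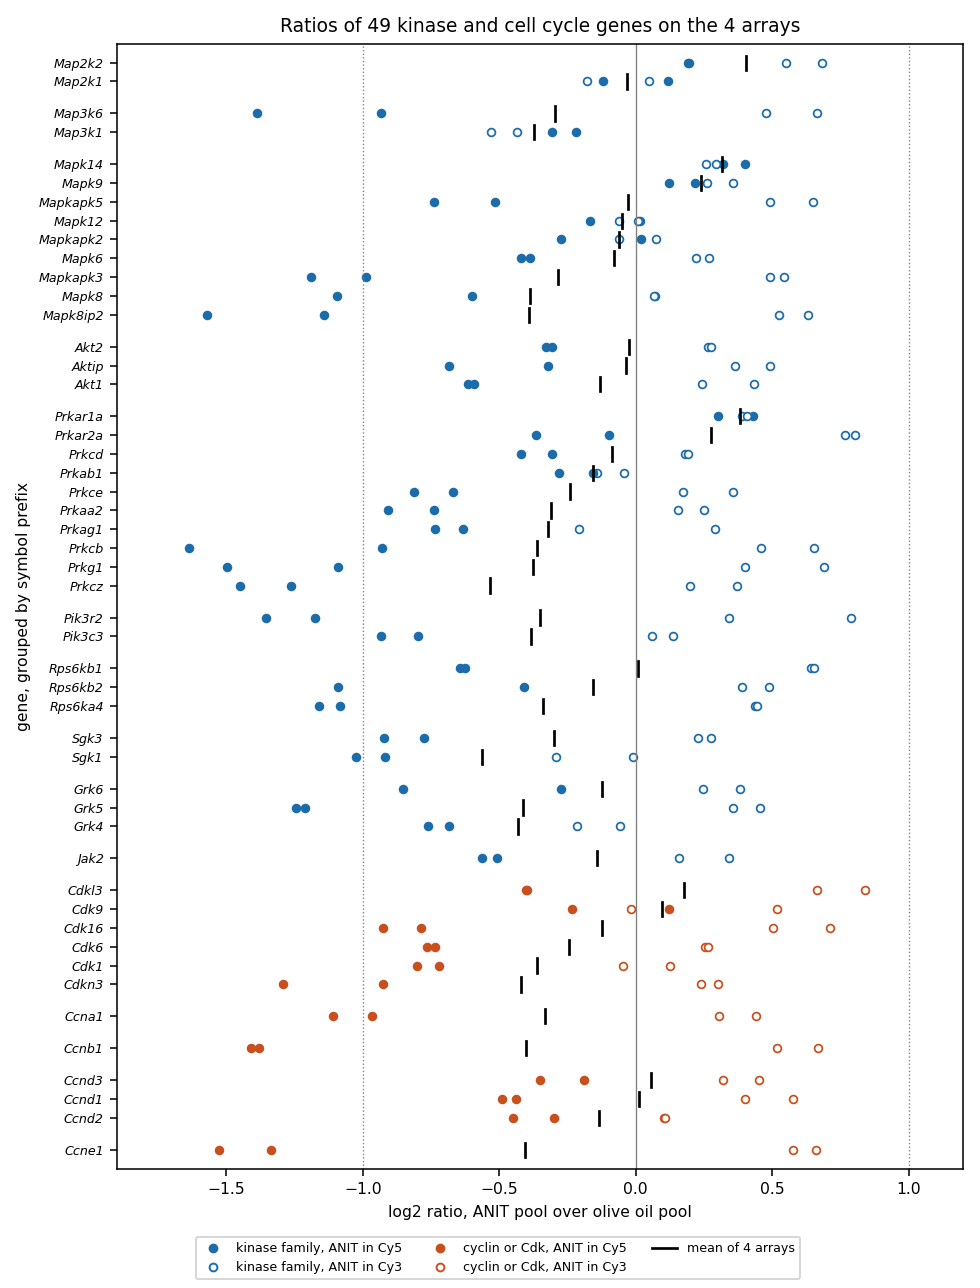
Log2 ratio, ANIT pool over olive oil pool (x axis), of the 49 genes, grouped by symbol prefix (y axis), as deposited. Each gene has 4 circles, 1 per array, filled where ANIT was in Cy5 and open where it was in Cy3; blue marks kinase families, orange cyclins and Cdk genes, the black bar is the mean, and dotted lines mark 2-fold. In 35 genes both filled circles lie left of 0 and both open circles right of it.

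The MAP kinase cascade held 13 genes with a median ratio of -0.06, or 0.10 after centring (all genes -0.24 and -0.072). Its members differed from each other as deposited: 3 kept a sign above 0 on all arrays, 1 kept a sign below 0, and 6 turned sign with the dye. The shares of all genes were 9.08%, 20.3% and, low with ANIT in Cy5, 55.6%. Map2k2 (MEK2), which phosphorylates ERK, had the highest mean of all 49 genes. Its ratios were 0.20 and 0.19 with ANIT in Cy5 against 0.68 and 0.55 with it in Cy3, a mean of 0.41 ± 0.25 (SD, n = 4), or 1.32-fold. All 4 arrays were above 0, and the Cy3 pair lay higher than the Cy5 pair. Its paralog Map2k1 (MEK1) had ratios of 0.12, -0.18, -0.12 and 0.049 on arrays 1 to 4, mean -0.033 ± 0.14, on either side of 0 within each orientation. As deposited, the groups of 4 values of these paralogs did not overlap, though each gene rests on 1 feature. After centring the groups overlapped: Map2k1 had 0.79, -0.49, 0.52 and -0.30, and Map2k2 had 0.87, 0.37, 0.83 and 0.21.

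As deposited, Mapk14, the p38α kinase of the stress response, gave nearly the same ratio whichever dye the ANIT pool carried. Its ratios were 0.40, 0.26, 0.32 and 0.29 on arrays 1 to 4, mean 0.32 ± 0.061. Mapk9 (JNK2) had a smaller ratio of the same sign, 0.22, 0.36, 0.12 and 0.26, mean 0.24 ± 0.097, as a mean of 2 features. Mapk8 (JNK1), the close relative of Mapk9, had a mean of the other sign: -1.10 and -0.60 with ANIT in Cy5 against 0.072 and 0.067 with it in Cy3, mean -0.39 ± 0.57. As deposited, all 4 arrays of Mapk8 were below all 4 of Mapk9. After centring this no longer held, with Mapk8 at 0.043 on array 3 and Mapk9 at -0.083 on array 4. Map3k1 (MEKK1), at the head of the JNK branch, was below 0 throughout at -0.22, -0.53, -0.31 and -0.44, mean -0.37 ± 0.14. It was lower with ANIT in Cy3 than in Cy5, the reverse of most genes here as deposited. After centring, the pair of arrays with ANIT in Cy5 took the other sign for Map3k1. The pair with ANIT in Cy3 did so for Mapk14 and, on array 4, for Mapk9. Mapk14 then had 1.07 and 0.96 with ANIT in Cy5 against -0.057 and -0.052 with it in Cy3.

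As deposited, the largest dye differences in this cascade were in Mapk8ip2 and Map3k6. Mapk8ip2 had ratios of -1.57 and -1.14 with ANIT in Cy5 against 0.52 and 0.63 with it in Cy3. Map3k6 had -1.39 and -0.93 against 0.48 and 0.66. Their means, -0.39 ± 1.13 and -0.30 ± 1.02, are smaller than the distance between orientations. After centring, Map3k1, Mapk14 and Map2k1 differed more between orientations than Mapk8ip2 and Map3k6 did. Map3k1 then had 0.46 and 0.34 with ANIT in Cy5 against -0.84 and -0.78 with it in Cy3. The means that follow are as deposited. The kinases that p38 activates, Mapkapk2, Mapkapk3 and Mapkapk5, had means of -0.06 ± 0.15, -0.29 ± 0.93 and -0.028 ± 0.70. Mapk12 (p38γ) at -0.052 ± 0.085 and Mapk6 (ERK3) at -0.08 ± 0.38 also lay near 0.

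The branch of Akt, PI3K, S6 kinases and Sgk held 10 genes with a median of -0.23, or -0.062 after centring (all genes -0.24 and -0.072). As deposited, 9 of the 10 turned sign with the dye, low with ANIT in Cy5, as did 55.6% of all genes. Sgk1, a kinase induced by serum and glucocorticoids that regulates ion transport, was the exception and had the lowest mean of all 49 genes. As a mean of 4 features it had ratios of -0.92 and -1.03 with ANIT in Cy5 against -0.29 and -0.011 with it in Cy3, mean -0.56 ± 0.49, or 1.48-fold lower as log2. Array 4 was close to 0. After centring its 4 ratios were -0.24, -0.60, -0.38 and -0.36, mean -0.40 ± 0.15, below 0 on every array and with a smaller spread. Its relative Sgk3 had -0.78 and -0.92 with ANIT in Cy5 against 0.28 and 0.23 with it in Cy3, mean -0.30 ± 0.64.

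Akt1 and Akt2, the protein kinase B isoforms downstream of insulin, had means near 0. Akt1 had ratios of -0.59, 0.24, -0.61 and 0.43 on arrays 1 to 4, mean -0.13 ± 0.55, and Akt2 of -0.31, 0.27, -0.33 and 0.28, mean -0.024 ± 0.34. In both genes the orientations mirrored each other around 0, so the mean is smaller in size than the value of any single array. Rps6kb1, the S6 kinase that phosphorylates ribosomal protein S6, showed this most evenly: -0.62, 0.64, -0.64 and 0.65, mean 0.0069 ± 0.74. Pik3r2, a regulatory subunit of class I PI3K, had -1.18 and -1.36 with ANIT in Cy5 against 0.34 and 0.79 with it in Cy3, mean -0.35 ± 1.08. The arrays with ANIT in Cy3 were all above those with it in Cy5. Pik3c3, the class III enzyme used in autophagy, had a mean of -0.38 ± 0.56. Rps6ka4 (MSK2) had -1.08 and -1.16 against 0.44 and 0.45, mean -0.34 ± 0.90; Rps6kb2 and Aktip had means of -0.16 ± 0.74 and -0.037 ± 0.56.

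Among the 10 Prk genes the median was -0.28, or -0.11 after centring (all genes -0.24 and -0.072). The regulatory subunits of protein kinase A were the only ones with means above 0 as deposited. After centring Prkcd (0.077) and Prkab1 (0.0091) had means above 0 too. Prkar1a, which holds the catalytic subunit inactive until cyclic AMP binds, was above 0 on every array at 0.43, 0.39, 0.30 and 0.41, mean 0.38 ± 0.057, with almost no difference between orientations as deposited; after centring the mean was 0.55 ± 0.55. Prkar2a had -0.37 and -0.097 with ANIT in Cy5 against 0.77 and 0.80 with it in Cy3, mean 0.28 ± 0.60; after centring its ratios were 0.31, 0.46, 0.55 and 0.46, all above 0. The subunits of AMPK, the kinase that senses a fall in cellular energy, had means of -0.31 ± 0.60 (Prkaa2), -0.32 ± 0.47 (Prkag1) and -0.16 ± 0.098 (Prkab1). Prkab1 was the only one of these 3 below 0 on all arrays as deposited, at -0.28, -0.14, -0.16 and -0.043.

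The 4 protein kinase C isoforms respond to diacylglycerol or to other lipids. As deposited, all of them turned sign with the dye, low with ANIT in Cy5, as did 55.6% of all genes. Prkcz, an atypical isoform, had the lowest mean of them, with -1.45 and -1.26 in the Cy5 orientation and 0.37 and 0.20 in the Cy3 orientation, mean -0.54 ± 0.95 over 3 features. Prkcb had -1.64 and -0.93 against 0.66 and 0.46, mean -0.36 ± 1.10. Prkce and Prkcd had means of -0.24 ± 0.59 and -0.088 ± 0.32, and Prkg1, the kinase activated by cyclic GMP, of -0.37 ± 1.08. The RefSeq gene table lists an older name of a 14-3-3 protein among the synonyms of Prkcz, so which transcript each Prkcz feature reads is uncertain.

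Kinases that act at receptors (4 genes) had a median of -0.28, beside -0.24 over all genes. After centring it was -0.11, beside -0.072 over all genes. Grk4, a kinase that desensitises G protein-coupled receptors, was below 0 on all arrays at -0.76, -0.21, -0.69 and -0.059, mean -0.43 ± 0.35, as it was after centring. Grk5 had nearly the same mean, -0.41 ± 0.94, but turned sign with the dye (-1.24 and -1.21 against 0.36 and 0.45), and Grk6 had a mean of -0.12 ± 0.56. Jak2, which relays cytokine and growth hormone signals to STAT proteins, had -0.56, 0.34, -0.51 and 0.16 on arrays 1 to 4, mean -0.14 ± 0.46, over 3 features.

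The 6 cyclins had a median of -0.23, or -0.069 after centring (all genes -0.24 and -0.072). As deposited, each of them was below 0 on both arrays with ANIT in Cy5 and above 0 on both with ANIT in Cy3. Of all genes 55.6% were so. The D-type cyclins, which act on entry into the cycle, differed less between orientations than the A, B and E cyclins did as deposited. Ccnd1 had -0.49 and -0.44 against 0.57 and 0.40, mean 0.011 ± 0.56. Ccnd3 had -0.19 and -0.35 against 0.45 and 0.32, mean 0.057 ± 0.39. Ccnd2 had a mean of -0.13 ± 0.28. Ccne1, the cyclin of the start of DNA replication, had -1.53 and -1.34 with ANIT in Cy5 against 0.66 and 0.58 with it in Cy3, mean -0.41 ± 1.19. Ccnb1, the cyclin of mitosis, had -1.38 and -1.41 against 0.67 and 0.52, mean -0.40 ± 1.15. Ccna1, an A-type cyclin, had -0.97 and -1.11 against 0.30 and 0.44, mean -0.33 ± 0.82. Ratios of the A, B and E cyclins and of the D cyclins did not overlap with ANIT in Cy5, but did with it in Cy3. After centring, Ccnd2 differed more between orientations than Ccna1 did. Ccnd2 then had 0.37 and 0.19 against -0.21 and -0.24, and Ccna1 -0.29 and -0.47 against -0.0082 and 0.095.

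The 6 genes with the Cdk prefix had a median of -0.18, or -0.02 after centring (all genes -0.24 and -0.072). Of these 6, Cdkn3 had the lowest mean, -0.42 ± 0.81, from -1.29 and -0.93 against 0.24 and 0.30. Cdkl3, a little-studied Cdk-like kinase, had the highest, 0.18 ± 0.67, from -0.40 and -0.40 against 0.66 and 0.84. Both genes turned sign with the dye, on either side of 0 in the opposite orientations. Cdk1, the partner of cyclin B in mitosis, had -0.72, -0.048, -0.80 and 0.13 on arrays 1 to 4 as a mean of 5 features, mean -0.36 ± 0.47. Cdk6, the partner of D-type cyclins, had a mean of -0.25 ± 0.58, also over 5 features. Cdk16, a kinase of the PCTAIRE group, and Cdk9, which releases paused RNA polymerase II, had means of -0.12 ± 0.85 and 0.097 ± 0.32.

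Cdk1 and Ccnb1 form 1 complex, and their start regions are shown because promoters of mitotic genes are known for CCAAT boxes and for the cell cycle element TTTGAA. The sequences, from RefSeq on GRCr8, are the 250 bases before each gene's start, 5′ to 3′ on the gene's strand, at chr20:19265043-19265292 (plus strand, Cdk1) and chr2:33655226-33655475 (minus strand, Ccnb1). Capitals mark CCAAT or TTTGAA on either strand, so CCAAT on the other strand reads as ATTGG.
Cdk1: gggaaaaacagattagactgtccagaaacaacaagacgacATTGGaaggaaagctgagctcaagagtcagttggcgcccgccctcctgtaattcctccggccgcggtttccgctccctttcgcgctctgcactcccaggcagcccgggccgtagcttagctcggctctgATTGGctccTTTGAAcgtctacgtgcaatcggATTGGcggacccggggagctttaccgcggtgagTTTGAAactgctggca
Ccnb1: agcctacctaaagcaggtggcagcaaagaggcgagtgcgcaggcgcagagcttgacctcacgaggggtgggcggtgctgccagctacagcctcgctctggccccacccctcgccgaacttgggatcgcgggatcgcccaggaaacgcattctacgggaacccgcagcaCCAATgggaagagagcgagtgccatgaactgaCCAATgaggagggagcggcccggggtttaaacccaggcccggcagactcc

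The Cdk1 window held 3 CCAAT matches, 210, 81 and 49 bases before the start, and 2 TTTGAA matches, 72 and 16 bases before it. The Ccnb1 window held 2 CCAAT matches, 82 and 50 bases before the start, and none of TTTGAA. No match of one motif overlapped a match of the other in these windows. A start-region window was at hand for 40 of the 49 genes (44 windows). CCAAT was in 6 of the 10 windows of cyclin and Cdk genes (60.0%), in 5 of the 34 of kinase genes (14.7%), and in 34.0% of all 33469 windows of the same length. TTTGAA was in 4 of the 10 (40.0%), in 1 of the 34 (2.94%), and in 16.2% of all windows. These counts are of windows: the 10 belong to 8 genes and the 34 to 32 genes. Cdkn3 and Cdk16 have 2 windows each, and Sgk1 has 3, with neither motif. The 2 Cdkn3 windows overlap and hold the same sites of both motifs, so each site is counted in both. The matches are of letters and say nothing of a factor's binding or of the array ratios.

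For 13 genes the array carried more than 1 feature, and the features of Cdk1 and Sgk1 disagreed most. The lowest Cdk1 feature had -1.10, -0.996, -0.96 and -0.81 on arrays 1 to 4, mean -0.97 ± 0.12, below 0 in both orientations and about as far; after centring its mean was -0.80 ± 0.50. The other 4 Cdk1 features had means from -0.38 to 0.075. The first of these had -1.37 and -1.52 with ANIT in Cy5 against 0.68 and 0.69 with it in Cy3, and another had 0.04 and -0.081 against -0.63 and -0.44, lower with ANIT in Cy3. Means of the Cdk1 features ranged over 1.04, wider than the ranges of 0.93 in Sgk1, 0.74 in Prkcz and 0.51 in Akt2.

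The 4 Sgk1 features had means of -0.92 ± 0.50, -0.80 ± 0.36, -0.54 ± 0.67 and 0.0095 ± 0.47. The lowest had -1.30, -0.65, -1.38 and -0.35 on arrays 1 to 4 and the next -1.09, -0.78, -1.03 and -0.29, both below 0 on all arrays. The highest turned sign with the dye, at -0.22 and -0.52 against 0.26 and 0.52. Of the 3 Prkcz features, the lowest had -1.58, -0.16, -1.47 and -0.45, mean -0.92 ± 0.72, and a second spot of the same source clone had -1.86, 0.73, -1.32 and 0.38, mean -0.52 ± 1.27. The gap of 0.40 between these spots was the fourth widest among the 21 pairs of features on the array that share a clone (median gap 0.19, widest 0.59).

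These features were the 4 of 75 (5.33%) that passed 1.5-fold below 0 with 1 sign: 1 of Cdk1, 2 of Sgk1 and 1 of Prkcz, beside 6.92% of all features. None passed above 0, beside 2.48% of all features, and none reached 2-fold, beside 3.82%. The same 4 passed after centring, where 4.70% of all features did. Features of the other genes were closer: the 5 Cdk6 features had means from -0.28 to -0.17, both Ccnb1 features were near the gene mean (-0.42 and -0.38), and the 4 Akt2 features ran from -0.26 to 0.25. The Ccnd2 features differed in their course: one had -0.11, -0.29, -0.22 and -0.35, mean -0.24 ± 0.10, with 1 sign throughout, and the other -0.49, 0.50, -0.68 and 0.56, mean -0.028 ± 0.65. The median range between features of a gene was 0.21 for the 13 genes and 0.20 for all 340 genes with several features.

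**Figure D2:**
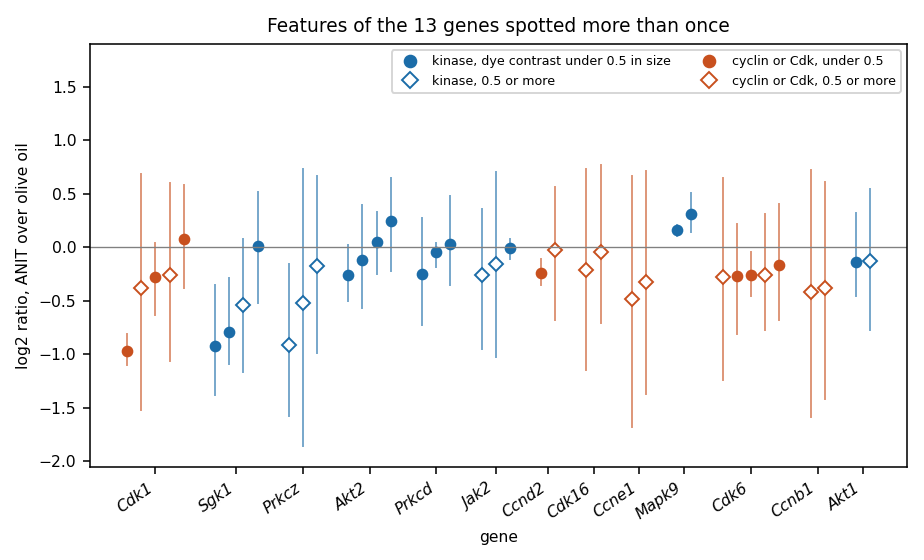
Mean log2 ratio (y axis) of each feature of the 13 genes spotted more than once (x axis, ordered by the range between features); lines span the lowest to highest of 4 arrays. Filled circles have a dye contrast under 0.5 in size and open diamonds 0.5 or more, blue for kinases and orange for cyclins and Cdk genes; the Cdk1 features spread over 1.04 and the Cdk6 features over 0.11.

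The part of each ratio that follows the dye was measured as the dye contrast: the mean with ANIT in Cy5 minus the mean with ANIT in Cy3, divided by 2. A negative contrast means a lower ratio where ANIT carried Cy5. It was 0.5 or more in size in 36 of the 75 features (48.0%, beside 43.2% of all features), each time negative: 22 of 51 kinase features (43.1%) and 14 of 24 cyclin and Cdk features (58.3%). It was 1 or more in 5 features, beside 12.3% of all features: 1 of Ccnb1, 2 of Ccne1, 1 of Cdk1 and 1 of Prkcz. By gene mean, 23 of the 49 genes reached 0.5 (46.9%, beside 40.1%). They include Ccne1 (-1.02), Ccnb1 (-0.99) and Mapk8ip2 (-0.97), the largest contrasts of the 49 as deposited. They exclude the gene means of Ccnd1 (-0.48), Ccnd3 (-0.33) and Ccnd2 (-0.24), although 1 of the 2 Ccnd2 features reached -0.56. The median contrast was -0.48 over the 49 genes, the value of Ccnd1, and -0.39 over all genes. The contrast was larger than the mean ratio in 39 of the 49 genes (79.6%, beside 64.4% of all genes), among them each of the 12 cyclin and Cdk genes.

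Replicate arrays of 1 orientation agreed closely: across the 75 features r was 0.90 between arrays 1 and 3 and 0.85 between arrays 2 and 4. Between arrays of opposite orientation r ran from -0.21 to -0.14. Features are not independent of each other and share the array, so these values are descriptions. The median SD of a member gene was 0.56 over all 4 arrays and 0.10 within an orientation. Because the array medians also follow the dye, centring moves every dye contrast up by 0.49. Then 11 of the 75 features reached 0.5 in size (14.7%, beside 33.8% of all features), 6 of them positive and 5 negative. By gene mean, 4 of the 49 genes did so after centring (8.16%, beside 21.0% of all genes). They were Map3k1 (0.60), Mapk14 (0.54), Ccne1 (-0.53) and Map2k1 (0.53).

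**Figure D3:**
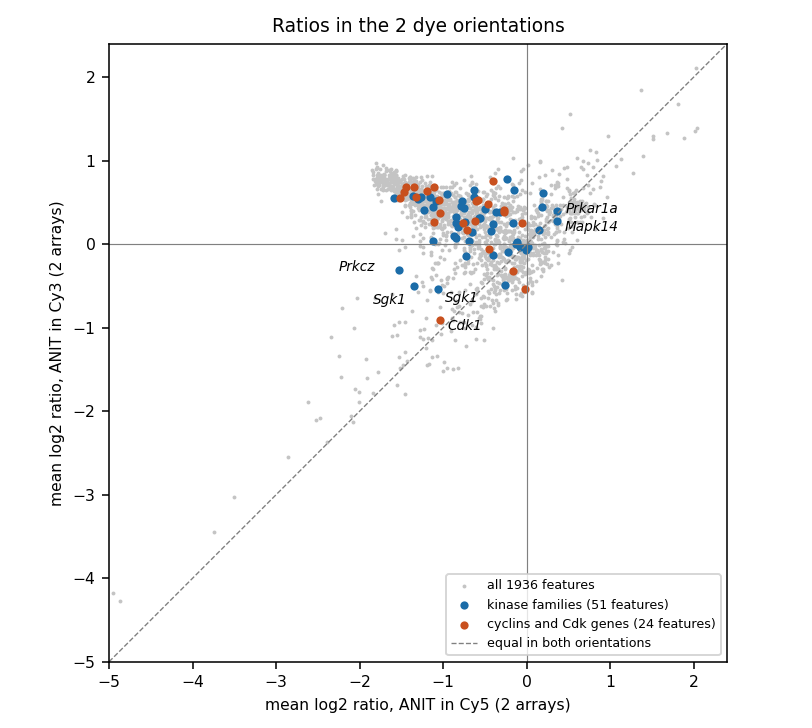
Mean log2 ratio with ANIT in Cy5 (x axis) against that with ANIT in Cy3 (y axis) for all 1936 features (grey), the 51 kinase features (blue) and the 24 cyclin and Cdk features (orange), as deposited. The dashed line marks equal ratios in both orientations; most members lie in the upper left, while the labelled Cdk1, Prkcz, both Sgk1, Prkar1a and Mapk14 features have 1 sign in both.

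Kinase families and cyclin or Cdk genes had medians that differed little. The median gene ratio over the 4 arrays was -0.16 for the 37 kinase genes and -0.19 for the 12 cyclin and Cdk genes, a difference of 0.03. On arrays 1 to 4 the difference of medians was 0.07, -0.04, 0.13 and -0.13 (SD 0.12): kinases were the higher class on both arrays with ANIT in Cy5 and the lower on both with ANIT in Cy3. The difference is smaller than its spread over arrays and changed sign with the dye. The kinase medians were -0.63 and 0.29 in the Cy5 and Cy3 orientations, and those of the cyclin and Cdk genes -0.76 and 0.38. Gene means ran from -0.56 to 0.41 among kinases and from -0.42 to 0.18 among cyclin and Cdk genes.

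**Figure D4:**
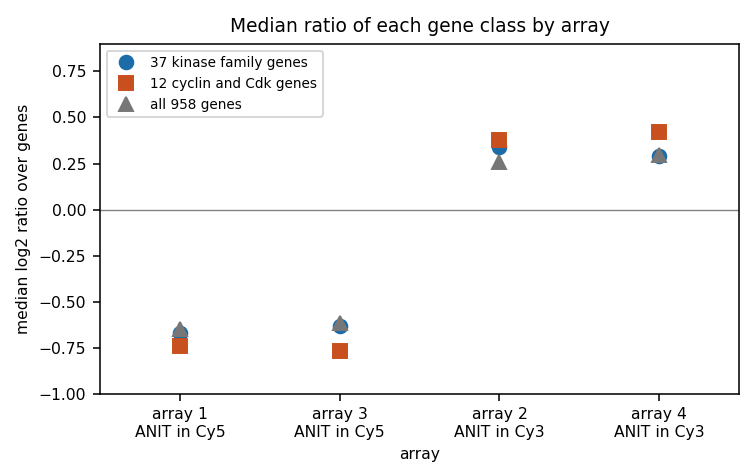
Median log2 ratio over genes (y axis) on each array (x axis, arrays with ANIT in Cy5 at left) for the 37 kinase genes (blue circles), the 12 cyclin and Cdk genes (orange squares) and all 958 genes (grey triangles). The medians lie between -0.77 and -0.62 with ANIT in Cy5 and between 0.26 and 0.42 with ANIT in Cy3, and kinases and cyclin or Cdk genes differ by at most 0.13 on any array.

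A model with a dye term across all features (limma, adjusted p limit 0.05) set the pools against each other on hybridisation error alone. It separated them in 51 of the 75 features (68.0%, 8 higher and 43 lower), beside 75.2% of all features (14.2% higher and 61.0% lower), and found a dye term in 60 (80.0%), beside 69.7%. These calls compare 2 RNA pools and not the treatments, and without centring they include the offset of the arrays.

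Other genes of these pathways were read from 9 lists, of which 62 genes were measured. Their median was -0.23, beside -0.24 over all genes, and none reached 2-fold, beside 4.18% of all genes. A dye contrast of 0.5 or more in size was found in 29, beside 40.1% of all genes. On all arrays 4 of the 62 were above and 9 below 0, beside 9.08% and 20.3% of all genes. In 3 of each the sign held after centring too: Stat3, Dusp5 and Myc above, Gcgr, Adra1b and Camk2b below. After centring 7 were above and 9 below 0 on all arrays, beside 11.4% and 15.0% of all genes. Egr1, Ptpn2, Gadd45a and Gadd45g were gained above, and Egf, Fosl2, Stat5b, Dgkb, Cdc25a and Plk1 below. Upstream of MAP kinases, the receptor gene Egfr was below 0 at -0.45, -0.49, -0.69 and -0.27, mean -0.47 ± 0.17, and 1 of 6 genes of the growth factor, Ras and Raf list kept a sign (median -0.37); Egf, the ligand of that receptor, had a mean of -0.74 ± 0.82 and the adaptor Grb2 -0.45 ± 0.86. Of 3 MAP kinase phosphatases measured, Dusp5 was above 0 (0.16, 0.83, 0.29 and 0.83, mean 0.53 ± 0.35), Dusp1 below 0 (mean -0.28 ± 0.10), and Dusp6 turned sign (mean -0.22 ± 0.67). Of 4 immediate early genes (median 0.08), 1 kept a sign: Myc, a transcription factor that promotes growth, at 0.40, 0.72, 0.29 and 0.66, mean 0.52 ± 0.21. Egr1 and Fosl2, which changed sign between arrays as deposited, had means of 0.23 ± 0.72 and -0.51 ± 0.67; after centring they kept 1 sign, at 0.40 ± 0.16 and -0.34 ± 0.12. None of 4 genes of the insulin and PI3K list kept a sign (median -0.12), with Pdpk1, the kinase that phosphorylates Akt, at -0.20 ± 0.82 and Gsk3b at -0.14 ± 0.83.

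Downstream of Jak2, Stat3, the transcription factor of the hepatic acute phase response, had the highest ratio of the 62 genes, 0.98, 0.88, 0.84 and 1.03 on arrays 1 to 4, mean 0.93 ± 0.088, and was the 1 of 9 JAK and STAT genes to keep a sign (median -0.21). It was just short of 2-fold, and after centring, at a mean of 1.10 ± 0.55, it passed that limit. Stat5b and Epor had means of -0.45 ± 0.49 and -0.37 ± 0.76. In the cyclic AMP list (6 genes, median -0.32), 3 were below 0 throughout: Gcgr, the glucagon receptor, at -0.86, -0.91, -0.93 and -0.86, mean -0.89 ± 0.034, the lowest of the 62; Adra1b, an adrenergic receptor, at a mean of -0.71 ± 0.33; and Gnas, the stimulatory G protein subunit, at -0.22 ± 0.11. In the phospholipase C and protein kinase C list (11 genes, median -0.29), Camk2b (mean -0.64 ± 0.28) and Calm2 (mean -0.23 ± 0.05) were below 0 throughout, and Itpr1 (mean -0.48 ± 1.25) turned sign.

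Of 16 other cell cycle and replication genes (median -0.32), 10 had a dye contrast of 0.5 or more in size, beside 40.1% of all genes. On all arrays 1 was above 0 and 2 were below 0, beside 9.08% and 20.3% of all genes. Those with 1 sign as deposited were Ccng1 (mean 0.088 ± 0.086), Cks1b (-0.23, -0.32, -0.28 and -0.40, mean -0.31 ± 0.07) and Plk2 (mean -0.33 ± 0.26). After centring Ccng1, Cks1b and Plk2 had mixed signs, and Cdc25a and Plk1 were below 0 on all arrays. As deposited, the markers of replication and mitosis Pcna (mean -0.37 ± 1.02), Top2a (-0.41 ± 1.19), Aurkb (-0.42 ± 1.27) and Plk1 (-0.49 ± 0.70) each had an SD larger than the mean. After centring this held for Pcna, Top2a and Aurkb, but not for Plk1 (-0.32 ± 0.21). None of 3 genes of the p53 and growth arrest list kept a sign as deposited (median -0.02), while Gadd45a (0.14 ± 0.051) and Gadd45g (0.34 ± 0.18) did after centring.

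Of the cell type markers listed, 16 were measured and none reached 2-fold, beside 4.18% of all genes. Their median was -0.27, beside -0.24 over all genes. The range was from -0.84 (Il2rb, listed for lymphocytes) to 0.38 (Fn1, listed for stellate cells and fibroblasts). Of the other markers on the Fn1 list, Vim had a mean above 0 (0.13 ± 0.073). Timp1 (-0.11 ± 0.61) and Col1a1 (-0.44 ± 0.72) had means below 0. The median of that list was 0.0099. No macrophage or red blood cell marker was measured. Of 3 hepatocyte markers (median -0.13), Cyp2e1 was below 0 throughout with a mean of -0.51 ± 0.44, while Ttr (-0.13 ± 0.27) and Apoa1 (0.074 ± 0.20) had mixed signs. The cholangiocyte markers Spp1 and Ggt1 had means of -0.37 ± 1.15 and -0.31 ± 1.11. Ratios carry no level, so the liver label was not checked against its markers, and the part of a changed cell makeup in the ratios of kinases and cyclins was not tested.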

How the data were processed

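Per the labels, liver RNA was mixed within a condition, poly(A) RNA was then isolated, and both pools were labelled (Cy3, Cy5) and hybridised to spotted cDNA arrays with the dyes swapped. The authors deposited 1 log ratio per feature and array, read here as log2. Its log base, its direction, the scanner and any normalization or background correction: not given in the sources used here. The number of arrays, 4, limits the precision.

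Features were named by the platform annotation, and all 49 gene IDs carried the same symbol in RefSeq (GRCr8). The 19 features with several symbols were left out. Features of a gene were averaged on each array. The size rule, dye contrast and medians were computed on the values as deposited, and limma with a dye term used 2 residual degrees of freedom. Named genes were members with 1 sign or a mean of 0.5 or more, the ends of each family, the 3 largest dye contrasts, and up to 3 genes per pathway list, with markers and a few others added after their values were seen. The members and lists were chosen with earlier results of these data known.

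Alternatives were centring, single orientations, each array left out, single features, narrower membership, other limits, natural logarithms, the opposite sign and limma. On simulated data for ANIT against olive oil (1936 features), shifts of 1.5, 2 and 3 log2 passed the size rule in 100% of cases. Shifts of 0.5 log2 passed in 0%, which follows from the limit of 1, and limma called 0.922% of unchanged features. Unchanged features were simulated around 0, whereas the deposited ratios had a median of -0.25 over all features. The 0.922% therefore does not describe limma on the deposited values. Fits used limma 3.58.1 under R 4.3.3; all else used Python 3.11.15 with pandas 2.3.3, numpy 2.4.6 and, for plots, matplotlib 3.10.9.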

Additional observations from a re-analysis of the deposited data

How the results depend on the processing

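No member gene passed the 2-fold rule as deposited, nor with centring, with ANIT in Cy3 alone, with features that follow the dye left out (27 genes left), with 47 genes by narrower membership, with the opposite sign, with a 1.5-fold or 3-fold limit, with gene means read as natural logarithms, or with any 1 array left out (0 to 0 calls). Narrower membership, the opposite sign and the 3-fold limit could not have given a call, as no gene passed at 2-fold. With ANIT in Cy5 alone 13 genes passed, all lower (26.5%, beside 30.6% of all genes). Limma with a dye term called 51 features. Added after seeing the data, the sign alone gave 8 genes, gene means on natural logarithms gave 3 at 1.5-fold, and single features gave 4 at 1.5-fold and 4 at 2-fold on natural logarithms (5.33%, all lower, beside 5.84% of all features). The member median of -0.16 was between -0.24 and -0.17 with 1 array left out, 0.0083 after centring, -0.68 with ANIT in Cy5 alone and 0.31 with it in Cy3 alone. The difference of kinases and cyclin or Cdk genes, 0.03, was -0.093 with ANIT in Cy3 alone, 0.12 with it in Cy5 alone, 0.096 over features, -0.022 without Cdkn3, 0.0078 as a difference of means, and from -0.06 to 0.07 with 1 array left out. The 36 features that follow the dye became 11 after centring, 5 at a limit of 1, 23 as gene means, 60 by the limma dye coefficient, and 34 to 38 with 1 array left out. Of 28 named genes, centring turned the sign of 7, ANIT in Cy3 alone of 16 and ANIT in Cy5 alone of 3. Each array holds both pools, so every ratio is already a comparison within an array. The labels number the 4 arrays once and give no pairing beyond this. One pool per condition, an unstated log base and direction, and the absence of intensities limit every value.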

Other observations

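One feature with 2 symbols, Slfn4 and Cdk107, begins with a member prefix in its second symbol and was left out by the rule. It had ratios of -0.61, -0.67, -0.70 and -0.70 on arrays 1 to 4, mean -0.67 ± 0.04 (SD, n = 4), below 0 in both orientations as deposited. The array medians were -0.68, 0.31, -0.64 and 0.35. After centring this feature is therefore above 0 on array 1 and below 0 on the other arrays, furthest on arrays 2 and 4. The 2 features of Mapk9, spotted from 1 clone, differed by 0.15 in their mean ratio.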
